A study of Mus musculus with 6 samples.

Results

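The genes of MHC class II antigen presentation were examined in M2 macrophages (Mφs) in which a tRNA fragment had been blocked. The members were chosen by symbol, as the rows of the deposited count table named H2-Aa, H2-Ab1, H2-Eb1, H2-DMa, H2-DMb1, H2-DMb2, H2-Oa, Cd74 and Ciita, which gave 9 genes of 41549. The 6 libraries came from bone marrow-derived Mφs of wild-type C57BL/6N mice, grown with M-CSF and polarized to M2 by IL-4 plus IL-13. Before polarization, 3 samples (Ctr) had received a control LNA inhibitor and 3 (αGlu) an antisense oligonucleotide (ASO) against 5′tRF-Glu(CTC), a piece of tRNA-Glu(CTC) cut from its 5′ side, all by lipofection. Transfection and both cytokines were thus common to all libraries, and no untransfected or unpolarized cells were part of the comparison. The study describes 3 independent experiments, but the labels do not tie libraries to mice or cultures, so p-values measure only the spread between these samples.

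Class II molecules hold peptides cut from proteins in endosomes and show them to CD4 T cells. Their α and β chains assemble in the endoplasmic reticulum with the invariant chain (Cd74), which blocks the groove until proteases remove it, after which H2-DM exchanges the remaining fragment for peptide and H2-O holds H2-DM back. The class II chains and Cd74 are transcribed largely through CIITA, which does not bind DNA itself but joins factors assembled on the X and Y boxes of class II promoters. IL-4 is a known inducer of class II in mouse Mφs. C57BL/6 mice carry a defective H2-Ea gene, so that H2-Eb1 is transcribed without a partner chain and no I-E molecule reaches the surface.

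The sequence of the ASO is given to show what was blocked, in lower case, above its target, in which the 20 bases that pair with it are in capitals.
ASO: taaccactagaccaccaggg
target: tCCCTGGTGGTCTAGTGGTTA

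Most class II transcripts were lower in αGlu than in Ctr M2 Mφs, while those of the inhibitory chain H2-Oa were higher. Ciita, Cd74, H2-Aa, H2-Eb1, H2-DMa and H2-DMb1 stood at 60.4% to 70.1% of their mean Ctr level, with no overlap between the 3 Ctr and 3 αGlu libraries. H2-Ab1 stood at 82.8% and overlapped, H2-DMb2 was at 167% with overlap, and H2-Oa was 17.2-fold higher with none. None of the 9 members passed the test over all 6 libraries (edgeR's quasi-likelihood test, adjusted p below 0.1 and absolute log2 fold change above 1), as was so for all 11933 genes tested (0%). At an unadjusted p under 0.05 there were 7 members, 6 lower and 1 higher, where 24.7% of all genes tested reached it, 11.9% lower and 12.7% higher. Groups without overlap were found for 7 members, 6 lower and 1 higher, against 30.2% of all genes tested, 15.9% lower and 14.2% higher. The median log2 fold change of the 9 members was -0.52, and that of all genes tested 0.016. All 9 passed the filter on low counts, H2-Oa only through the group in which it was high.

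Library depth ran from 17912831 to 30386653 reads in exons, and αGlu 1 was the shallowest. Over all genes tested, αGlu 1 resembled the Ctr libraries (Pearson r of log2 CPM 0.966 to 0.982) more than αGlu 2 and 3 (0.929 with each), which resembled each other (0.992). Results are therefore given with and without αGlu 1. Without it 2290 genes were called (18.6%; 8.05% higher and 10.5% lower), among them 2 members, H2-DMb2 and H2-Oa, both higher. With no limit on the fold, an alternative added after the data were seen, 8 of 9 members had an adjusted p under 0.1 without αGlu 1, 6 lower and 2 higher, where 49.1% of all genes did (25.6% lower, 23.5% higher). DESeq2 on all 6 libraries called H2-Oa alone of the members, as higher (8.13% of all genes, 4.21% higher and 3.92% lower), as did the likelihood-ratio test of edgeR (7.53%), while limma-voom called none (0%). With no limit on the fold, DESeq2 passed 7 members, 6 of them lower, where 15.8% of all genes passed, 8.1% lower and 7.71% higher. For 7 of the 9 members αGlu 1 lay between all Ctr libraries and the other 2 αGlu libraries.

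**Figure D1:**
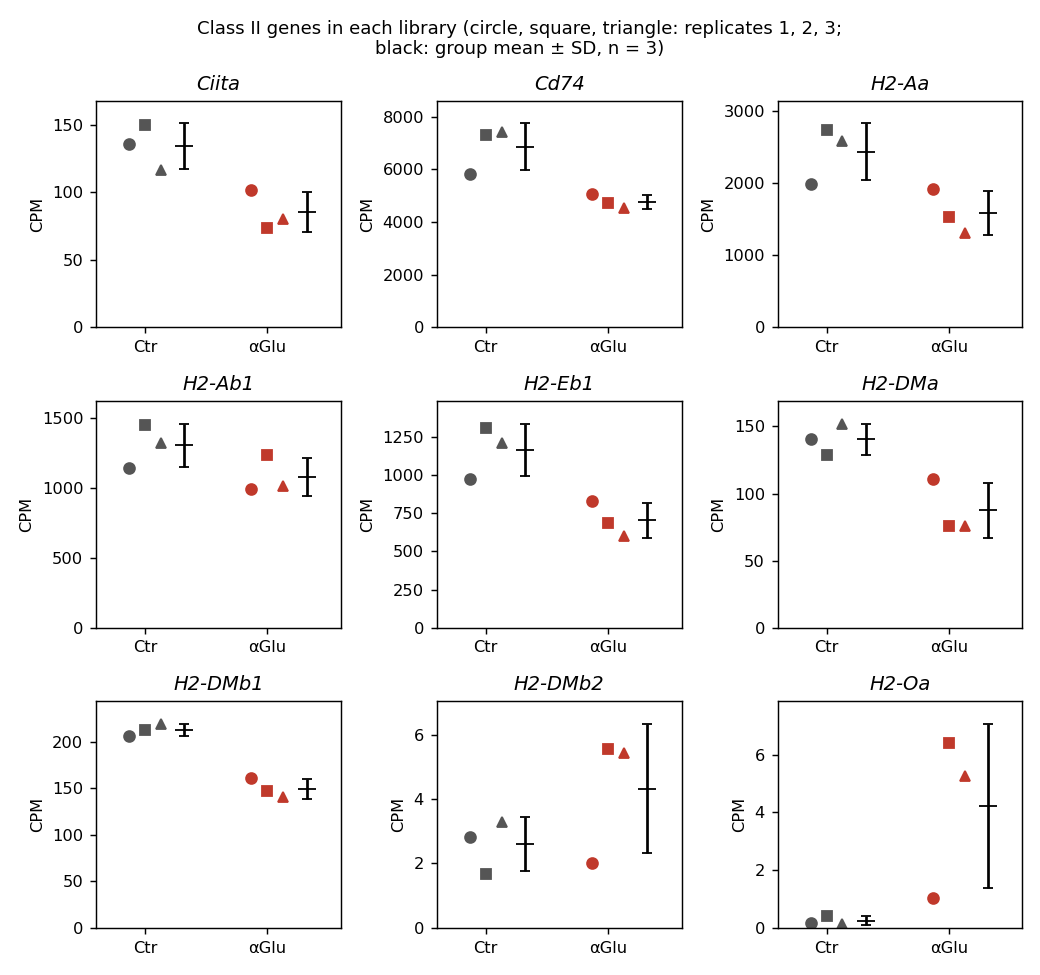
Level of each class II gene in the 6 libraries, in CPM (counts scaled to library depth; vertical axis from 0). Grey symbols are Ctr and red symbols αGlu libraries, shapes give the replicate number, and black bars are the group mean ± SD (n = 3). The red symbols lie below all grey ones for Ciita, Cd74, H2-Aa, H2-Eb1, H2-DMa and H2-DMb1 and above them for H2-Oa.

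Ciita (ENSMUSG00000022504; GRCm38 chromosome 16, 10480059 to 10528418, + strand), the master coactivator, had 136, 150 and 116 CPM (reads scaled to the depth of the library) in Ctr 1 to 3 and 102, 73.8 and 80.5 CPM in αGlu 1 to 3. All αGlu libraries lay below the lowest Ctr library, αGlu 1 nearest to it. The means were 134 ± 16.8 CPM in Ctr and 85.4 ± 14.6 CPM in αGlu (SD, n = 3), a log2 fold change of -0.65 ± 0.16 (SE) with an adjusted p of 0.156 by edgeR's quasi-likelihood test. It was -0.80 (adjusted p = 0.00362) without αGlu 1. In bulk RNA, fewer cells with a transcript and less of it per cell cannot be told apart, which holds for each member.

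Cd74 (ENSMUSG00000024610; chromosome 18, 60803848 to 60812652, + strand), the invariant chain, had 5832, 7308 and 7426 CPM in Ctr 1 to 3 and 5056, 4735 and 4531 CPM in αGlu 1 to 3. The groups did not overlap, and the gap was smallest between Ctr 1 and αGlu 1. The log2 fold change was -0.52 ± 0.21 (adjusted p = 0.2), and -0.57 without αGlu 1. Per length it was the most abundant member, with 8870 to 13226 TPM (transcript counts scaled by length and depth), and rank 12 of all genes by mean TPM. It made up 67.1% to 69.8% of the members' summed TPM in every library, and its share differed between groups by less than the spread between libraries (67.9 ± 0.881% in Ctr and 68.2 ± 1.37% in αGlu), while the summed TPM went from 18109 ± 2032 to 13321 ± 579 TPM (SD, n = 3). The lowest Ctr sum was 15763 TPM and the highest αGlu sum 13863 TPM.

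The classical chains lie side by side in the class II region of chromosome 17. H2-Aa (ENSMUSG00000036594; 34282744 to 34287823, - strand), the α chain of I-A, had 1989, 2734 and 2582 CPM in Ctr 1 to 3 and 1921, 1530 and 1313 CPM in αGlu 1 to 3. Its groups were separated only narrowly, since αGlu 1 reached 96.6% of the lowest Ctr library. The log2 fold change was -0.62 ± 0.22 with all libraries (adjusted p = 0.178) and -0.78 without αGlu 1 (adjusted p = 0.0117).

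H2-Ab1 (ENSMUSG00000073421; 34257689 to 34269419, + strand), the β chain that pairs with H2-Aa, had 1141, 1450 and 1319 CPM in Ctr 1 to 3 and 990, 1236 and 1011 CPM in αGlu 1 to 3. Here αGlu 2 was inside the range of Ctr. The log2 fold change was -0.27 ± 0.17 (adjusted p = 0.33). In the fit that left out αGlu 1 it was -0.22 (adjusted p = 0.272), and H2-Ab1 was the only member above 0.1 there.

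H2-Eb1 (ENSMUSG00000060586; 34305867 to 34316674, + strand), the β chain of I-E, had 973, 1310 and 1211 CPM in Ctr 1 to 3 and 828, 684 and 599 CPM in αGlu 1 to 3. All αGlu values were below all Ctr values. Its log2 fold change was -0.73 ± 0.19 (adjusted p = 0.156). It came to -0.87 when αGlu 1 was left out (adjusted p = 0.00579). H2-Ea, the missing partner, had no read in any library, and neither had H2-Eb2.

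The size of the difference was not equal for all chains. The ratio of H2-Aa to H2-Ab1, taken from TPM within each library, was 1.18, 1.27 and 1.32 in Ctr 1 to 3, 1.31 in αGlu 1, and 0.837 and 0.878 in αGlu 2 and 3. The same ratio for H2-Eb1 over H2-Ab1 was 1.13, 1.19 and 1.21 in Ctr, 1.1 in αGlu 1, and 0.731 and 0.783 in αGlu 2 and 3. Both ratios were below 1 only in αGlu 2 and 3, whereas αGlu 1 was near or inside the range of Ctr. These are descriptions, and the ratio between genes also depends on the transcript length assigned to each: the deposited RPKM imply summed exons of 4050 bases for H2-Aa, 2739 for H2-Ab1 and 2073 for H2-Eb1. Over the 6 libraries, log2 CPM of H2-Aa followed that of H2-Eb1 (Pearson r = 0.991) more closely than that of H2-Ab1 (r = 0.711); these points share the division into 2 groups.

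**Figure D2:**
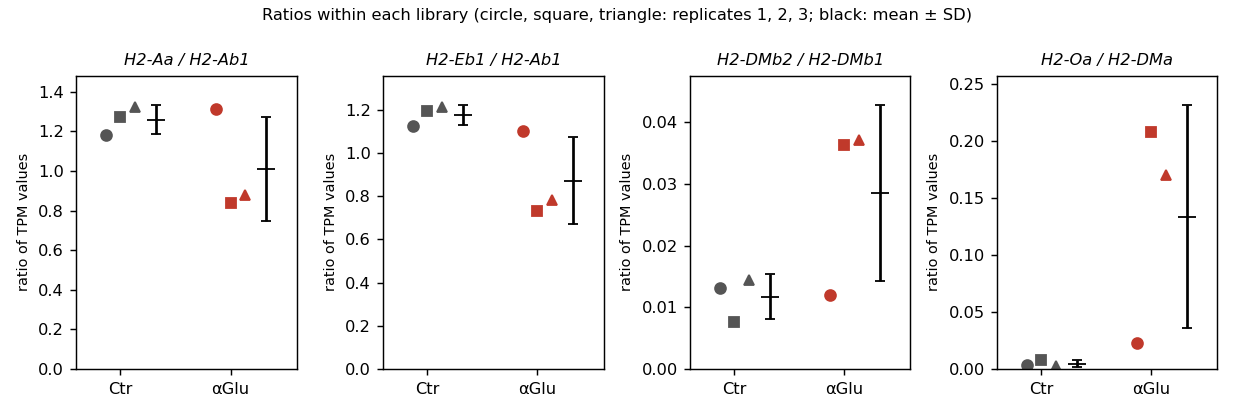
Ratios of TPM values between pairs of class II genes within each library (vertical axes from 0, no unit); grey is Ctr, red is αGlu, shapes give the replicate and black bars the mean ± SD (n = 3). The 2 ratios to H2-Ab1 are lowest, and H2-DMb2 to H2-DMb1 and H2-Oa to H2-DMa highest, in αGlu 2 and 3.

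The peptide exchange factor H2-DM consists of an α chain, H2-DMa, and a β chain encoded in the mouse by a pair of neighbouring genes. H2-DMa (ENSMUSG00000037649; chromosome 17, 34119541 to 34139101, + strand) had 140, 129 and 152 CPM in Ctr 1 to 3 and 111, 75.6 and 75.6 CPM in αGlu 1 to 3. H2-DMb1 (ENSMUSG00000079547; 34153072 to 34160230, + strand) had 207, 213 and 219 CPM in Ctr 1 to 3 and 161, 147 and 140 CPM in αGlu 1 to 3. Neither gene overlapped between groups, and H2-DMb1 had an SD of 6.24 CPM on a mean of 213 in Ctr and of 10.3 on 149 in αGlu. The log2 fold changes were -0.68 ± 0.18 for H2-DMa (adjusted p = 0.156) and -0.51 ± 0.09 for H2-DMb1 (adjusted p = 0.149), and without αGlu 1 they were -0.90 and -0.57. The second β chain gene, H2-DMb2 (ENSMUSG00000037548; 34143307 to 34151555, + strand), went the other way, with 2.82, 1.67 and 3.29 CPM in Ctr 1 to 3 and 2.01, 5.54 and 5.43 CPM in αGlu 1 to 3.

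In H2-DMb2 the αGlu 1 library lay within the Ctr range and the other 2 αGlu libraries above it. Its log2 fold change of 0.75 ± 0.45 (adjusted p = 0.326) became 1.08 (adjusted p = 0.0268) without αGlu 1, and 0.50 without Ctr 2. Of the total TPM from the 2 β chain genes, H2-DMb2 held little: its ratio to H2-DMb1 was 0.00757 to 0.0145 in Ctr, 0.012 in αGlu 1, and 0.0363 and 0.0372 in αGlu 2 and 3. The 2 genes share sequence: 369 of the 1629 windows of 50 bases in H2-DMb1 transcripts of GENCODE M21 also occur in H2-DMb2, so that reads from one could be counted to the other. Of the 1741 windows of H2-DMb2, 431 also occur in other genes, 165 of them with H2-DMb1 included. Summing H2-DMb1 and H2-DMb2 left a log2 fold change of -0.49. As H2-DMb2 held little of that sum, the value says little about H2-DMb2.

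H2-Oa (ENSMUSG00000024334; 34092340 to 34095234, + strand), the α chain of the H2-DM inhibitor H2-O, best known from B cells, had 4, 10 and 3 reads in Ctr 1 to 3 and 18, 204 and 143 reads in αGlu 1 to 3. This was 0.182, 0.418 and 0.139 CPM in Ctr and 1.03, 6.42 and 5.24 CPM in αGlu, with αGlu 1 above Ctr but well below the other 2. The log2 fold change was 4.07 ± 0.82 (adjusted p = 0.149). Leaving out αGlu 1 gave 4.51 (adjusted p = 0.000365), and DESeq2 on all libraries called it (adjusted p = 6.83e-05). It was not called when another library was left out, with log2 fold changes from 3.65 without αGlu 2 to 4.68 without Ctr 2. Even at its highest, 14.6 TPM in αGlu 2, its ratio to H2-DMa in TPM was 0.208, against 0.00224 to 0.00795 in Ctr. That ratio also depends on the assigned lengths, 1501 bases for H2-Oa and 3677 for H2-DMa. In αGlu 2 H2-Oa had 6.42 CPM and H2-DMa 75.6 CPM. The Ctr ratios rest on 3 to 10 reads of H2-Oa per library. Its partner H2-Ob, which was too low for the test over all libraries, had 0, 2 and 1 reads in Ctr 1 to 3 and 1, 40 and 36 reads in αGlu 1 to 3. H2-Oa and H2-Ob were thus both highest in αGlu 2 and 3. Markers of B cells gave summed levels of 0.603 to 0.954 CPM in Ctr and 0.746 to 1.20 CPM in αGlu, with Blk at 0 in every library and none of the 8 markers above a mean of 1 CPM. Cd79b, the only B cell marker tested, had a log2 fold change of -0.07 ± 0.36. Fcrla had 1, 4 and 3 reads in Ctr 1 to 3 and 2, 12 and 8 reads in αGlu 1 to 3. What part B cells had in the H2-Oa and H2-Ob reads was not tested.

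**Figure D3:**
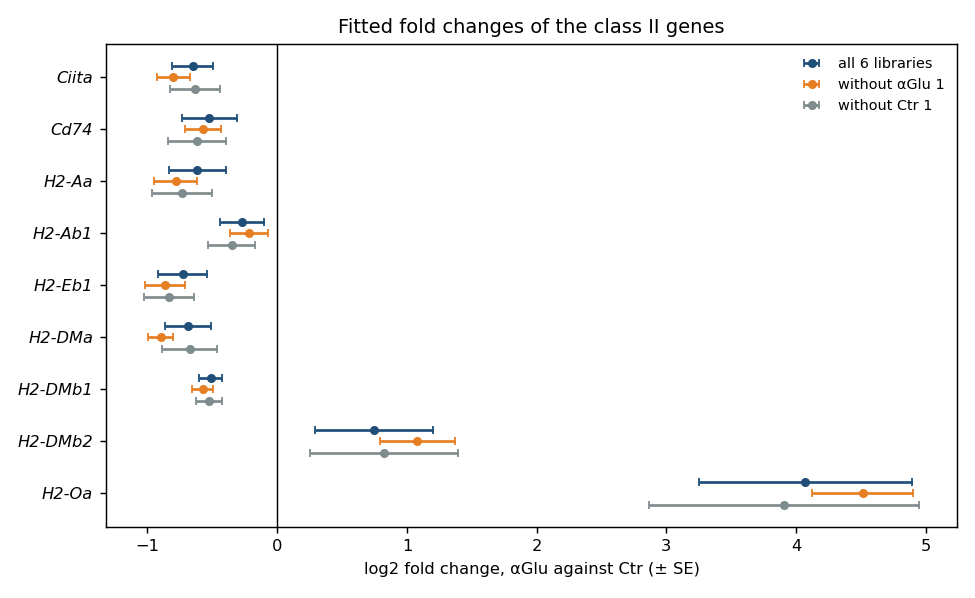
Fitted log2 fold change of each class II gene, αGlu against Ctr, with its SE as the horizontal bar (edgeR quasi-likelihood fits). Blue is from all 6 libraries, orange without αGlu 1 and grey without Ctr 1; 7 genes lie below 0 and H2-DMb2 and H2-Oa above 0 in all 3 fits.

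Other genes overlap some members on the other strand, and the strand setting of the counting is not given in the sources used here. Over H2-Oa lies the antisense gene BC051537, with 8 and 5 reads in αGlu 2 and 3 and none elsewhere. Over H2-Eb1 lies Gm20513, with 3 to 34 reads, far below the 14438 to 31333 reads of H2-Eb1. Brd2 overlaps H2-DMa and had 5465 to 10224 reads, more than H2-DMa itself (1939 to 3278), so reads from their shared stretch cannot be assigned with certainty. Dexi overlaps Ciita with 104 to 229 reads, against 1775 to 3586.

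Promoters are shown for the 5 members whose window held a Y box, to let the letters be set beside the levels above. RefSeq windows (GRCm38.p6, 250 bases before to 50 after each start) matched 6 of 9 members, all but H2-Ab1, Cd74 and Ciita. Each line runs over the 150 bases before the start site, on the gene's strand. Capitals mark TGATTGG (the core of the Y box, which NF-Y binds), GATGATGC (part of the X box, picked after reading these sequences) and TGACGTCA (the cAMP response element, or CRE), each searched on both strands.
H2-Aa (chr17:34287824-34287973, - strand): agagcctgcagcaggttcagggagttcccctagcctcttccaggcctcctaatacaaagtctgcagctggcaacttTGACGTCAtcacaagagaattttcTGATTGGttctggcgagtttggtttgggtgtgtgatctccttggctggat
H2-Eb1 (chr17:34305717-34305866, + strand): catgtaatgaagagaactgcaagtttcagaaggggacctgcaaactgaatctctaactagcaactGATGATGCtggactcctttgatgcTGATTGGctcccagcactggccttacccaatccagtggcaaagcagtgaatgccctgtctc
H2-DMb1 (chr17:34153041-34153190, + strand): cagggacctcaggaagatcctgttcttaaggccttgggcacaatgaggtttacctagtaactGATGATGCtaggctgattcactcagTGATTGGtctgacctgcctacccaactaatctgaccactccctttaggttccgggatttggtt
H2-DMb2 (chr17:34145099-34145248, + strand): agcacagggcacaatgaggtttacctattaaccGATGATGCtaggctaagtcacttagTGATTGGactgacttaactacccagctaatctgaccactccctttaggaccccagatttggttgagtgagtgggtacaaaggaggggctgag
H2-Oa (chr17:34092229-34092378, + strand): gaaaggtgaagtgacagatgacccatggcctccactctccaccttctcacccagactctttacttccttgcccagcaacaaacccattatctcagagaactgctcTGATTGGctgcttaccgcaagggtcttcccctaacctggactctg

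Of all 32851 windows, 7.82% held the Y box letters, 0.703% the X box letters and 1.79% the CRE. The Y box began 45 to 92 bases before the start in these 5 members. The X box letters stood before the Y box in H2-Eb1, H2-DMb1 and H2-DMb2, and the CRE in H2-Aa. As the X box letters searched are only part of that box, their absence does not show that a window lacks one. Neither of the 2 windows of H2-DMa held any of the 3 patterns. Their bases before the start lie at 34122682 to 34122831 and at 34125368 to 34125517, inside the gene's span of 34119541 to 34139101. Any other start site of H2-DMa had no window and was not searched, so the patterns may lie elsewhere in this gene. The printed bases of H2-DMb2 also lie inside its gene's span, 34143307 to 34151555. Those of H2-DMb1 and H2-Oa lie partly inside theirs, which begin at 34153072 and 34092340. The start sites used for H2-DMb1, H2-DMb2 and H2-Oa thus lie after the first base of each gene in GENCODE M21. H2-DMb1 and H2-DMb2 both carried X and Y letters, with log2 fold changes of -0.51 and 0.75. The sign for H2-DMb2 is uncertain, since its groups overlapped (adjusted p = 0.326, quasi-likelihood test) and it shares sequence with H2-DMb1. H2-Oa with a Y box was higher in αGlu, and H2-Aa and H2-Eb1 with one were lower. Whether these letters bear on the levels was not tested.

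Promoter-binding partners of CIITA, a list of 10 genes that also holds the coactivators Crebbp, Ep300 and Kat2b, showed no test call over all libraries. Their median log2 fold change was 0.037. None reached an unadjusted p under 0.05; the smallest were for the NF-Y subunits Nfyc (log2 fold change -0.17 ± 0.07, adjusted p = 0.212) and Nfya (-0.54 ± 0.24, adjusted p = 0.221), the latter also the most abundant of the list. Nfya was at 183, 157 and 157 CPM in Ctr 1 to 3 and 158, 93.1 and 91.5 CPM in αGlu 1 to 3, so αGlu 1 sat among the Ctr libraries. Without αGlu 1 no gene of the list was called, and the median was 0.068. With no limit on the fold, that quasi-likelihood test put Rfx5 (0.919, adjusted p = 0.000836) and Rfxank (0.337, adjusted p = 0.0434) higher. It put Nfya lower (-0.848, adjusted p = 0.00121), and the other genes had an adjusted p above 0.1. Rfx5 had 7.11, 17.5 and 17.6 CPM in αGlu 1 to 3, beside 9.27 ± 0.654 CPM in Ctr (mean ± SD).

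Of the 14 signals and factors that act on the Ciita gene, 5 were higher and 2 lower at an unadjusted p under 0.05, with a median log2 fold change of 0.068. Over all genes tested the shares were 12.7% higher and 11.9% lower, which apply to the list counts below as well. Irf4, a factor induced by IL-4 that binds with PU.1, had 30.3, 26.9 and 25.3 CPM in Ctr 1 to 3 and 8.95, 2.05 and 1.54 CPM in αGlu 1 to 3. Socs1, an inhibitor of JAK signalling, had 7.27, 8.94 and 9.23 CPM in Ctr 1 to 3 and 12.2, 38.6 and 39.6 CPM in αGlu 1 to 3. Neither overlapped between groups. The log2 fold changes were -2.76 ± 0.68 for Irf4 and 1.83 ± 0.45 for Socs1 (adjusted p = 0.156 for each). The other higher genes were Ifngr1 (0.92 ± 0.36), Ifngr2 (0.355 ± 0.12), Jak2 (1.66 ± 0.53) and Il4ra (2.70 ± 0.73). Ifngr1 and Jak2 overlapped between groups. Spi1, which encodes PU.1, was the most abundant of the list and stood at 82.3% of Ctr (log2 fold change -0.28 ± 0.11, adjusted p = 0.188). Without αGlu 1, 5 of the 14 were called higher and 2 lower, where 8.05% and 10.5% of all genes were.

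Among the 10 genes of invariant chain cleavage and endosomal processing, 1 was higher and 1 lower at an unadjusted p under 0.05, with a median log2 fold change of -0.19. Ifi30 (GILT, which reduces disulphide bonds of antigens) had a log2 fold change of -0.53 ± 0.16 (adjusted p = 0.16) and Lgmn (an asparagine-specific protease) one of 0.49 ± 0.20 (adjusted p = 0.197). Ctss, the protease that trims the invariant chain in Mφs, was the most abundant, with 20816 to 35630 TPM, and overlapped between groups (log2 fold change -0.42 ± 0.31, adjusted p = 0.401). Without αGlu 1, 2 of these genes were called lower and none higher.

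In the surface turnover and vesicle traffic list, 9 of 10 genes were tested, and 3 were higher and 3 lower at an unadjusted p under 0.05 (median log2 fold change -0.15). The tetraspanins Cd37 and Cd82 had the smallest p, with log2 fold changes of 0.57 ± 0.13 (adjusted p = 0.156) and 0.51 ± 0.16 (adjusted p = 0.162), both without overlap. The tetraspanins Cd9 and Cd63 were lower without overlap, with log2 fold changes of -1.42 ± 0.47 (adjusted p = 0.167) and -0.70 ± 0.28 (adjusted p = 0.199). Without αGlu 1, 0 of this list were called higher and 2 lower, which were Cd9 and Cd63. Rab7, a late endosome GTPase, was the most abundant (-0.26 ± 0.13, adjusted p = 0.252). Of the ligands and co-receptors of Cd74, 4 of 6 were tested and 3 were higher at an unadjusted p under 0.05, with a median log2 fold change of 1.14. Mif, the cytokine that binds Cd74, had 54.2, 52.6 and 48.8 CPM in Ctr 1 to 3 and 63.7, 206 and 194 CPM in αGlu 1 to 3. Its paralog Ddt followed with a log2 fold change of 1.42 ± 0.39, beside 1.58 ± 0.43 for Mif (adjusted p = 0.157 for each). Mif and Ddt were called higher without αGlu 1, as was Cxcr4, so that Cd74 and its ligands had opposite signs.

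**Figure D4:**
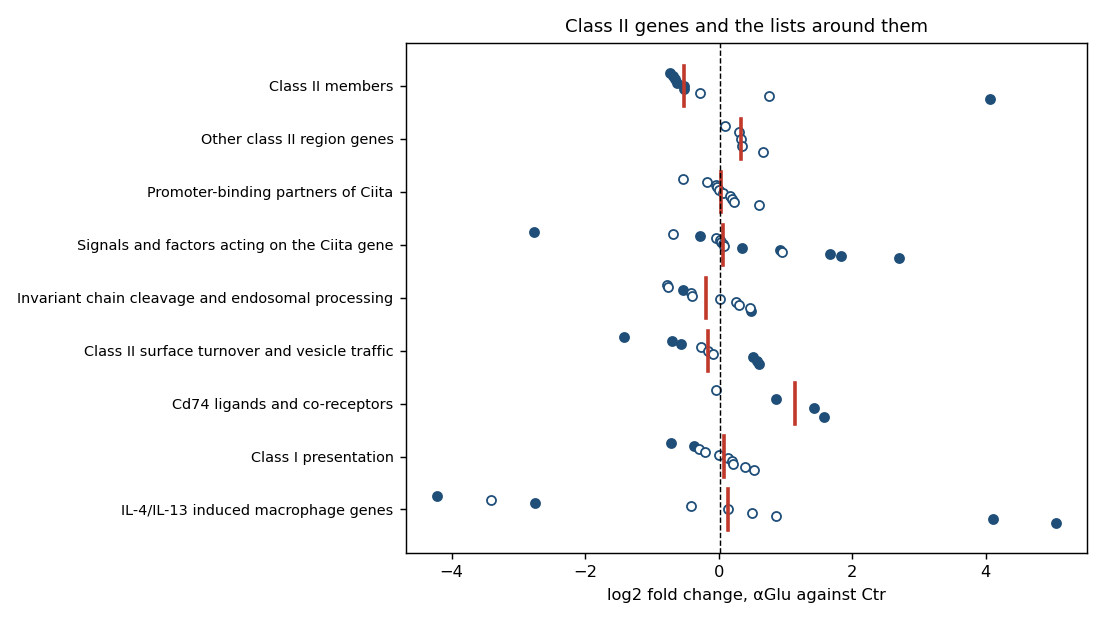
Log2 fold change, αGlu against Ctr, of every tested gene in the class II set and in the lists around it (1 point a gene; filled where the unadjusted p was under 0.05). Red bars are list medians and the dashed line is the median of all genes tested, 0.016; the class II median is -0.52 and that of the Cd74 ligands and co-receptors 1.14.

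Genes of class I presentation and of the IL-4 and IL-13 response are set beside class II as comparisons, the latter because they share the stimulus. The class I list was not chosen by position. Of 10 class I genes, 0 were higher and 2 lower at an unadjusted p under 0.05, with a median log2 fold change of 0.074. These 2 were the chaperones Calr (-0.71 ± 0.25, adjusted p = 0.175) and Pdia3 (-0.37 ± 0.14, adjusted p = 0.191), while B2m, the most abundant, had 0.20 ± 0.26 (adjusted p = 0.646). The tested genes that lie inside the class II region but serve other roles (Brd2, Psmb8, Psmb9, Tap1, Tap2) had a median of 0.33, none below 0. The peptide transporter genes had the smallest p, with 0.67 ± 0.34 for Tap1 (adjusted p = 0.261) and 0.33 ± 0.17 for Tap2 (adjusted p = 0.263), and Psmb8 was the most abundant (0.31 ± 0.19, adjusted p = 0.329). None of these neighbours reached an unadjusted p under 0.05, and each was lowest in Ctr 1. Tap1 had 81.0, 182 and 204 CPM in Ctr 1 to 3 and 248, 266 and 228 CPM in αGlu 1 to 3. Whether position in the region played a part was not tested.

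Of the genes that IL-4 and IL-13 induce in Mφs, 9 of 10 were tested, 2 were higher and 2 lower at an unadjusted p under 0.05, and the median log2 fold change was 0.14. Ccl22, a chemokine, was at 13, 9.57 and 11 CPM in Ctr 1 to 3 and 2.47, 1.61 and 0.99 CPM in αGlu 1 to 3, and Mgl2, a lectin, had a log2 fold change of -4.22 ± 0.98 (adjusted p = 0.156). Arg1, arginase 1, and Ccl24, a chemokine, were the 2 higher genes, with log2 fold changes of 5.06 ± 1.46 (adjusted p = 0.159) and 4.10 ± 1.30 (adjusted p = 0.162), αGlu 1 lying just below the lowest Ctr library for both. Without αGlu 1, 3 of the list were called higher and 3 lower. Chil3 was the most abundant, with 2709 to 6926 TPM, and overlapped between groups.

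Markers of other cell types were read beside the class II genes. Of 10 dendritic cell markers only 2, Itgax and Cd83, exceeded a mean of 1 CPM, and their summed level was 1253 to 1629 CPM in Ctr and 69.9 to 479 CPM in αGlu. Itgax, which Mφs also make, was most of that sum in Ctr and αGlu 1: 1548, 1224 and 1175 CPM in Ctr 1 to 3 and 418, 17.6 and 13.8 CPM in αGlu 1 to 3 (log2 fold change -3.14 ± 1.38, adjusted p = 0.221; -6.40 without αGlu 1). In αGlu 2 and 3 most of the sum was Cd83, with 51.8 and 54.9 CPM. The marker with the smallest p, Zbtb46, did not exceed 1 CPM in any library (-1.1 ± 0.37, adjusted p = 0.168), Xcr1 was at 0 and Flt3 at no more than 0.0573 CPM. What part Itgax-positive cells had in the class II levels was not tested. T cell and NK cell markers summed to at most 0.221 CPM, with Cd3g and Trac at 0 in every library. All 8 Mφ markers were above 1 CPM, with sums of 11849 to 13404 CPM in Ctr and 12594 to 18784 CPM in αGlu, and Lyz2 was the most abundant. Among them, Cd14 had the smallest p (log2 fold change 2.97 ± 1.04, adjusted p = 0.174), followed by Adgre1 (0.52 ± 0.24, adjusted p = 0.235).

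The genes whose log2 CPM over the 6 libraries was most like that of Ciita, among 8570 other tested genes whose average log2 CPM was 3 or more, were Nagpa (Pearson r = 0.998), Cnnm4 (0.995), Rab1b (0.995), Dlst (0.994) and Aldh4a1 (0.993). These 6 points fall into the 2 groups, and the values are given as a description. The nearest to the mean centred profile of all 9 members were Ddx55 (0.976), Anp32b (0.976), Bcl6 (0.969), Pde1b (0.969) and Dctn3 (0.968). That mean profile was nearly flat, from -0.14 to 0.13 on the log2 scale, since H2-Oa, with the largest fold change of the members, ran against most of them. Without H2-Oa and H2-DMb2 the profile of the remaining members was 0.15, 0.38 and 0.33 in Ctr 1 to 3 and -0.11, -0.33 and -0.43 in αGlu 1 to 3.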

How the data were processed

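The series holds mRNA sequencing of 6 M2 Mφ libraries from poly(A) stranded kits, and annotation and normalization of the reads were done by the authors in an analysis portal of QIAGEN (build GRCm38 per the labels). The deposited table gives, per gene, raw exon counts, RPKM and TPM; RPKM and TPM are the authors' normalization to depth and gene length. The deposited columns of 6 CPM values were not used. Counts were fitted with edgeR 4.0.16 (filterByExpr, minimum count 10, TMM, quasi-likelihood test, Benjamini-Hochberg over all genes tested), Ctr against αGlu with no covariate. CPM values in the text use TMM library sizes; log2 CPM has a prior count of 2. Per-gene errors are SE of the log2 fold change. DESeq2 1.42.0, limma 3.58.1 and other settings were alternatives. No 2 libraries were duplicates (chi-square per gene at least 20.0). The fits were tested on simulated data whose spread was that within Ctr, so this test does not cover the wider spread between αGlu libraries. The members and lists were chosen with earlier results of these data known. Named genes were all members and, from each list, any gene called, the 2 smallest p and the highest TPM; from the likeness measure (Pearson r of log2 CPM, genes with a mean of 3 or more), the 5 nearest. H2-Ob, H2-Ea, H2-Eb2, Itgax, Cd83, Xcr1, Flt3, Cxcr4, Cd9, Cd63, Arg1, Ccl24 and the overlapping genes were named after their values were seen. So were Rfx5, Rfxank, Crebbp, Ep300, Kat2b, Ifngr1, Ifngr2, Jak2, Il4ra and Fcrla. Positions are from GENCODE M21.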

Additional observations from a re-analysis of the deposited data

How the results depend on the processing

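All 9 members kept the sign of their log2 fold change in each of the alternatives run, 145 values in all, of which 141 stayed on the same side of the threshold and 4 passed it (H2-Oa by DESeq2, by edgeR's likelihood-ratio test and without αGlu 1, and H2-DMb2 without αGlu 1). The 0 genes and 0 members called became 1117 genes and 1 member with DESeq2, and 899 genes and 1 member with the likelihood-ratio test; limma-voom called 0. Leaving out 1 library gave 0 to 2290 genes and 0 to 2 members, with calls only without αGlu 1. With no fold limit, DESeq2 passed 2173 genes and 7 members, and the fit without αGlu 1 passed 6055 genes and 8 members; both were added after the data were seen. A replicate block called 17 genes and 0 members. Same-numbered libraries correlated by 0.076, 0.065 and 0.154 in their deviations from the group means, and differently numbered ones by -0.112 to 0.046. The labels do not state pairs, so the main fit took none. These correlations are small and do not settle whether equal numbers mark pairs. The causes of the differences between settings were not tested. H2-Oa rests on 17 reads in all Ctr libraries together, and H2-DMb2 on 40 to 71 reads per Ctr library, so their levels in Ctr are imprecise.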
